A study of Homo sapiens with 6 samples.

Results

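The neuroendocrine differentiation genes described here are CHGA, CHGB, SCG2, SYP, ENO2, NCAM1, INSM1, SOX2 and REST. They were taken by symbol from the deposited table of counts, in which 9 of 9 had a row among 27470 genes. The rule that takes them uses symbols only, though the genes were picked with earlier results of these data known. The libraries came from 22Rv1-ABHD5 cells. 22Rv1 is an established human castration-resistant prostate cancer line, and these cells carry ABHD5 cDNA on a lentiviral vector behind a doxycycline (Dox)-inducible promoter and were selected with G418 as a stable population. The 3 Control libraries came from these cells grown without Dox and the 3 OE libraries from the same cells with Dox, for 48 h in each case per the series' design. Every library therefore carries the vector, and what Dox does by itself and what ABHD5 does cannot be told apart in them. The paper states, without showing the data, that Dox hardly changed the growth of the parent lines, which concerns growth and not RNA. ABHD5 is a coactivator of the triglyceride lipase ATGL, and the study sequenced this RNA to ask how ABHD5 slows cancer cell growth.

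Neuroendocrine cells make peptides and amines, pack them into dense-core granules and release them on a stimulus. In prostate cancer, luminal adenocarcinoma cells under treatment can lose luminal genes and gain granule proteins, synaptic vesicle proteins and neural transcription factors, and pathologists stain for chromogranin A, synaptophysin and NCAM1 (CD56) to recognise this state. REST is the repressor on the other side: its zinc fingers bind a 21-base element, RE1, in neuronal and endocrine genes and recruit the corepressors RCOR1 and SIN3A, and in non-neural cells this keeps many of the same marker genes low.

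Because RE1 is the sequence through which REST is known to act, it was searched near the start of each of the 9 genes. The letters searched were TTCAGCACC, then 3 bases of any kind, then GACAGCGCC, on both strands, within 5000 bases on either side of the gene start of GENCODE 44 on hg38. Up to 3 mismatches were allowed over the 18 fixed letters. CHGA, CHGB and SYP held such a sequence, each in an intron downstream of the gene start. The sequence near CHGA lies at chr14:92923523-92923543 on the plus strand, 383 bases from the start, with 0 mismatches. That of CHGB lies at chr20:5911704-5911724 on the plus strand, 204 bases from the start, with 1 mismatch. That of SYP lies at chrX:49200122-49200142 on the minus strand, 86 bases from the start, with 2 mismatches. They are shown 5′ to 3′ because they show how nearly these 3 genes share a sequence that the other 6 lack at this threshold. Capitals mark the letters that match the searched element.
CHGA: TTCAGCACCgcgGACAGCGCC
CHGB: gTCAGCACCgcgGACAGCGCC
SYP: TcCAGCACCgtgGACAGaGCC
The best match had 5 mismatches near ENO2, INSM1 and REST and 6 near NCAM1, SCG2 and SOX2. Of 18401 protein-coding genes of the table, 455 (2.47%) held a sequence with at most 3 mismatches in the same window. A match describes letters and does not show that REST binds there in these cells.

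The libraries were made with a 3′ mRNA kit, which primes at the poly(A) tail and gives about 1 read position per transcript, so counts are not divided by gene length. Library totals ran from 3394672 to 7271771 counts on genes, and 1 count was worth 0.131 to 0.310 CPM (counts scaled to a common library total of 1e6). CPM here is scaled by edgeR's TMM factors, and values are given as mean ± SD. ABHD5 was at 61.4 ± 3.0 CPM (SD, n = 3) in Control and 116.1 ± 21.3 CPM (SD, n = 3) in OE libraries. Its log2 fold change was 0.91 (SE 0.15), with an adjusted p of 1.978e-04 by edgeR's quasi-likelihood test. Whether transcripts from the vector end inside the region counted for ABHD5 was not tested. The labels do not say that the 3 libraries of a group came from separate cultures, so p-values measure the spread between these libraries only. The share of listed reads outside any gene was 32.5% to 34.6% for Control and 35.6% to 39.5% for OE libraries, and its part in the results below was not tested. The labelled cell type, a prostate cancer cell, was checked on luminal markers, of which 15 of 15 were expressed highly enough to be tested. Of 8 basal markers, KRT5, KRT6A and KRT14 were at 0 in every library. The others were detected: KRT15 had 3 counts over the Control and 7 over the OE libraries, TP63 2 and 0, and ITGB4 14 and 44. DST was well expressed and NGFR was counted mainly with Dox, as given below.

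With Dox, CHGB, SYP and REST were higher. ENO2 and SCG2 were measured well enough to be tested and did not pass the threshold. CHGA and INSM1 had 0 counts in every library, and NCAM1 and SOX2 had a few. In numbers, 5 of 9 passed the filter on low counts (edgeR's filterByExpr), and 3 of these 5 had an adjusted p under 0.05, all of them higher with Dox. Over the 12233 genes tested, 25.5% passed that threshold, 11.9% as higher and 13.7% as lower, and the median log2 fold change was 0.02. A gene that is low in both groups cannot pass the filter, so the 5 tested genes do not stand for all 9. The filter asks for 2.37 CPM on library totals in 3 libraries, and CHGB, SYP and REST reached it in all 6. In RNA from a whole culture, fewer cells of a type and less RNA per cell cannot be told apart.

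**Figure D1:**
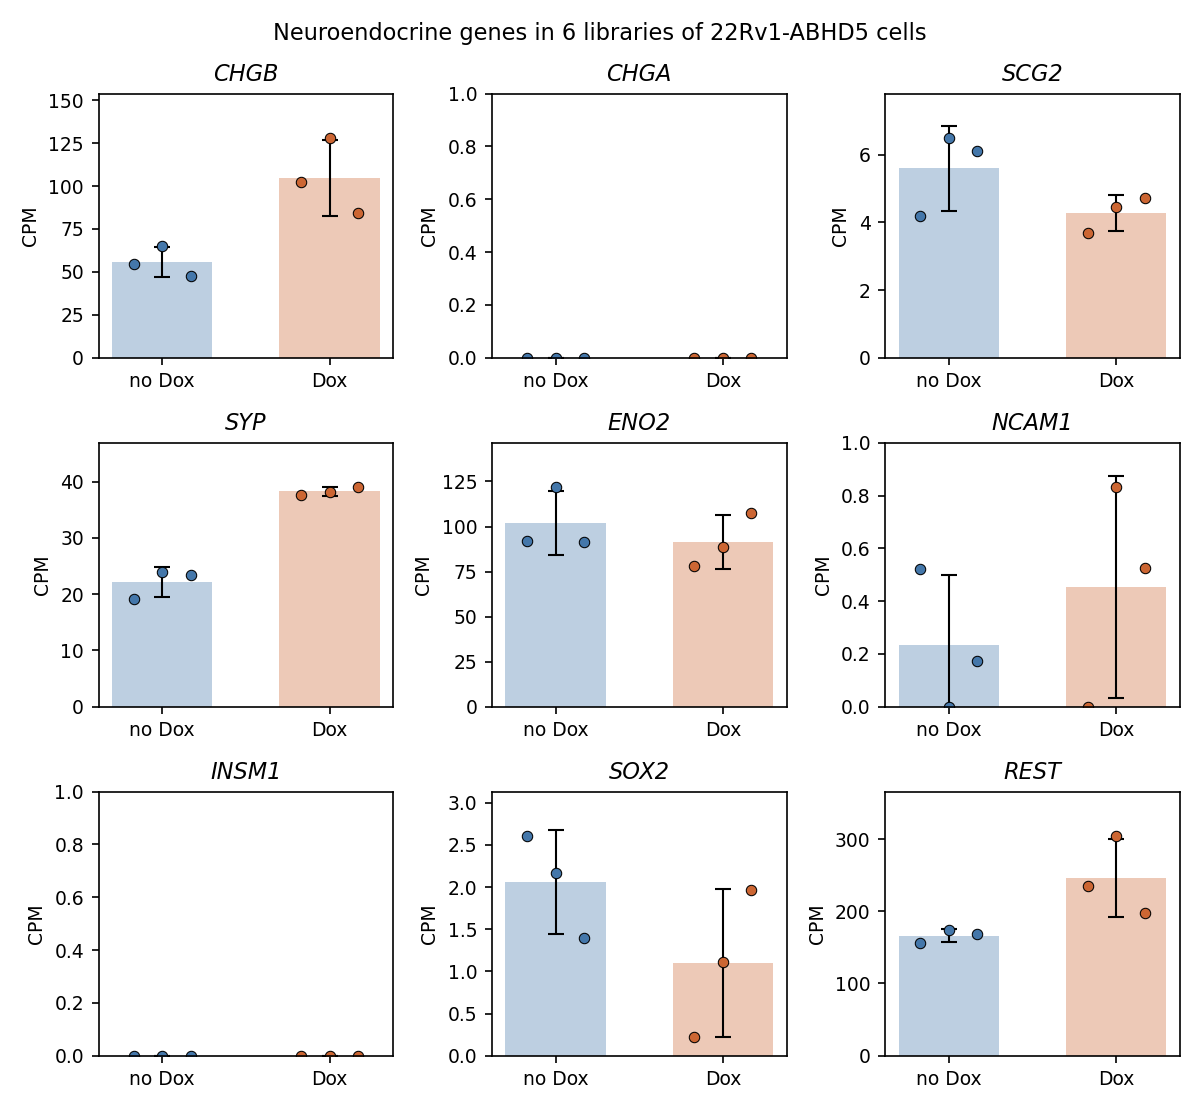
TMM-scaled CPM (linear axis from 0, a separate scale for each gene) of the 9 neuroendocrine differentiation genes, with points for the 3 Control (no Dox) and 3 OE (Dox) libraries, bars for group means and whiskers for the SD. CHGB, SYP and REST sit higher in every OE library than in any Control library, ENO2 and SCG2 do not stand so, and CHGA and INSM1 are at 0 throughout.

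Granins are acidic proteins that drive the formation of dense-core granules and are cut into peptides. CHGB, the granin chromogranin B, was counted 208, 209 and 272 times in Control replicates 1, 2 and 3, and 470, 461 and 640 times in OE replicates 1, 2 and 3. Scaled, these are 54.3, 64.8 and 47.5 CPM without Dox and 102.2, 128.3 and 84.1 CPM with Dox. The lowest OE library was above the highest Control library, and within OE the spread was wider. The mean went from 55.5 ± 8.73 to 104.9 ± 22.2 CPM, which is a fold of 1.89 and a log2 fold change of 0.92 (SE 0.16, 95% interval 0.57 to 1.26). By edgeR's quasi-likelihood test the adjusted p was 4.886e-04. The value stayed between 0.75 and 1.06 over 15 alternative settings and remained past the threshold in 15 of 15. CHGB lies on chromosome 20 of hg38 from 5911510 to 5925353 on the plus strand.

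CHGA, chromogranin A, is the granin most used as a stain and blood marker. It lies on chromosome 14 from 92923150 to 92935285 and had 0 counts in all 6 libraries. A total of 0 allows up to 3 counts, or 0.235 CPM over the Control and 0.190 CPM over the OE libraries, which covers counting error only. The rise of CHGB was thus not accompanied by detectable CHGA at this depth. CHGA holds the element with 0 mismatches, and what the element does in these cells was not tested. SCG2 (secretogranin II, on chromosome 2 from 223596940 to 223602361, minus strand) was present at a low level. Its counts were 16, 21 and 35 in Control and 17, 16 and 36 in OE libraries, or 4.18, 6.51 and 6.11 against 3.70, 4.45 and 4.73 CPM. The groups overlapped. Its log2 fold change was -0.37 (SE 0.32, interval -1.04 to 0.29) with an adjusted p of 0.426, an interval wide enough to hold a 2-fold decrease.

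Synaptophysin is a major membrane protein of synaptic vesicles and of the small clear vesicles of neuroendocrine cells. SYP lies on chromosome X from 49187815 to 49200218 on the minus strand. It was at 19.1, 23.9 and 23.4 CPM (73, 77 and 134 counts) in Control and at 37.6, 38.1 and 39.1 CPM (173, 137 and 298 counts) in OE libraries. The 3 OE libraries lay close together, and each was above each Control library. The group means were 22.1 ± 2.65 and 38.3 ± 0.775 CPM. The log2 fold change was 0.79 (SE 0.16, interval 0.45 to 1.13), a fold of 1.73, with an adjusted p of 0.00147. Over the 15 alternatives it ran from 0.68 to 0.91, past the threshold each time. An antisense transcript, SYP-AS1, overlaps the gene and had 0 to 2 counts, too few to bear on the SYP count.

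ENO2 encodes neuron-specific enolase, a glycolytic enzyme that is abundant in neurons and neuroendocrine cells but also found in many tumour cells. It lies on chromosome 12 from 6913745 to 6923698. It was at 91.7, 122.2 and 91.6 CPM in Control and 77.9, 88.8 and 107.3 CPM in OE libraries. The groups overlapped, with means of 101.8 ± 17.6 and 91.3 ± 14.9 CPM. The log2 fold change was -0.15 (SE 0.15, interval -0.47 to 0.17) with an adjusted p of 0.524, so a rise of the size seen for CHGB or SYP lies outside its interval. LRRC23 overlaps ENO2 on the same strand, which makes the ENO2 count less certain. The LRRC23 log2 fold change was 0.24 with an adjusted p of 0.380.

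NCAM1 and INSM1 were at or near the limit of detection, and SOX2 was low. NCAM1 is a cell adhesion molecule of neurons, neuroendocrine cells and natural killer cells (chromosome 11, 112961275 to 113278436). It had 2, 0 and 1 counts in Control and 0, 3 and 4 in OE libraries, and the ratio of the summed counts, scaled for library size, was 1.89 with a 95% counting interval of 0.431 to 11.3. No direction can be read from so few reads. INSM1 is a zinc-finger factor that drives endocrine differentiation in pancreas, adrenal and lung (chromosome 20, 20368104 to 20370949). It had 0 counts in every library. SOX2 is a pluripotency and neural progenitor factor linked to lineage change in prostate cancer (chromosome 3, 181711925 to 181714436). It had 10, 7 and 8 counts in Control and 1, 4 and 15 in OE libraries, or 2.61, 2.17 and 1.40 against 0.217, 1.11 and 1.97 CPM. OE replicates 1 and 2 lay below every Control library and OE replicate 3 inside the Control range, and the ratio was 0.647 (0.341 to 1.21). With the filter on low counts removed, the fitted log2 fold change of SOX2 was -0.75 with an adjusted p of 0.467. The non-coding gene SOX2-OT overlaps SOX2 on the same strand and had 0 to 7 counts, which makes the SOX2 count less certain.

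REST, the repressor, was higher with Dox, as were CHGB and SYP. It lies on chromosome 4 from 56907876 to 56966808 on the plus strand. In Control libraries it was at 156.2, 174.6 and 168.3 CPM (598, 563 and 964 counts). In OE libraries it was at 234.9, 305.0 and 198.3 CPM (1080, 1096 and 1510 counts). Each OE library was above each Control library, and OE replicate 2 stood highest. The means were 166.4 ± 9.35 and 246.1 ± 54.2 CPM, a fold of 1.48. The log2 fold change was 0.56 (SE 0.15, interval 0.25 to 0.87) with an adjusted p of 0.00930. Unlike those of CHGB and SYP, its call was lost in 1 of 15 alternatives. Without Control replicate 1 the value was 0.51 and the adjusted p 0.0640, and without OE replicate 2 the value was 0.38. The gene NOA1 overlaps REST on the opposite strand with 95 to 301 counts, and whether the authors counted by strand is not stated. The NOA1 log2 fold change was 0.36 with an adjusted p of 0.101.

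On the CPM scale, which for 3′ reads is not divided by length, the Control means ran from REST through ENO2, CHGB and SYP to SCG2, SOX2 and NCAM1, with CHGA and INSM1 at 0. ENO2 was above CHGB in each Control library. With Dox, ENO2 and CHGB changed places by their means, but their ranges of 77.9 to 107.3 and 84.1 to 128.3 CPM overlapped. SCG2 and SOX2 stayed apart in both groups.

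The genes around the granins and synaptophysin moved more in the upward direction. A list of 33 genes of the secretory granule (enzymes that process peptides, sorting proteins, synaptotagmins, RAB proteins and fusion proteins) had 23 tested, of which 10 rose, 2 fell and 11 did not pass. The shares were 43.5% higher and 8.70% lower, beside 11.9% and 13.7% of all genes tested. Its median log2 fold change was 0.40, with 18 of 23 over 0, beside 0.02 over all genes tested. PAM, which amidates peptides at their end, rose from 25.9 ± 2.03 to 61.0 ± 10.1 CPM (log2 fold change 1.24, adjusted p 2.241e-05). CPE, the carboxypeptidase that trims prohormones after cleavage, rose from 149.8 ± 6.23 to 286.7 ± 33.1 CPM (0.94, adjusted p 3.072e-05). PCSK1N, an inhibitor of the prohormone convertase PCSK1, rose from 11.9 ± 2.75 to 28.9 ± 11.9 CPM (1.34, adjusted p 0.00123). PCSK1 itself had at most 9 counts in a library and PCSK2 at most 1, so these convertases were barely detected. Other convertases were not on the list. The few PCSK1 counts went the other way, with 16 over the Control and 4 over the OE libraries. Their ratio, scaled for library size, was 0.202 (counting interval 0.0492 to 0.627). The genes that fell were RAB3B, a small GTPase of secretory vesicles, from 263.9 ± 20.5 to 117.1 ± 3.48 CPM (-1.17, adjusted p 1.778e-06), and SYT4, a synaptotagmin, from 275.8 ± 8.24 to 169.5 ± 11.4 CPM (-0.70, adjusted p 3.019e-04). These 5 genes were past the threshold in 15 of 15 alternatives. Each of the other 7 calls was lost when some library was left out: the count of 12 became 6 without Control replicate 1, 5 without Control replicate 2, and 6 without Control replicate 3 or OE replicate 1.

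Transcription and splicing factors of neuroendocrine cells did not move one way. Of 25 on the list, 8 were tested, and 3 rose and 3 fell. That is 37.5% in each direction, beside 11.9% higher and 13.7% lower of all genes tested. The median log2 fold change was 0.11. The proneural factor NEUROD1 was close to absent, with 3 counts over the Control and 1 over the OE libraries. POU3F2 (BRN2), a neural POU factor known in neuroendocrine prostate cancer, rose from 28.5, 19.2 and 25.3 CPM in Control to 125.0, 118.0 and 96.9 CPM in OE libraries. Every OE library was far above every Control library, and the log2 fold change was 2.20 (SE 0.16, adjusted p 2.761e-08). The homeobox factor ISL1 rose too, from 8.34 ± 3.54 to 17.9 ± 1.47 CPM (log2 fold change 1.08, adjusted p 0.00492).

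In the other direction went SRRM4, the neural splicing factor that joins a neural exon into REST transcripts. SRRM4 fell from 146.9 ± 19.2 to 64.0 ± 8.72 CPM, a log2 fold change of -1.20 (SE 0.14, adjusted p 8.282e-06). Reads from the 3′ end do not show which exons the REST transcripts contain. PEG10, a retrotransposon-derived gene expressed in neuroendocrine prostate cancer, fell from 675.3 ± 34.9 to 359.7 ± 25.0 CPM (-0.91, adjusted p 3.111e-05). HES6, a repressor that promotes neural differentiation, went from 24.2 ± 0.788 to 15.7 ± 4.15 CPM (-0.63, adjusted p 0.0313). The HES6 call was lost without any of Control replicates 1, 2 or 3 or OE replicates 2 or 3, at -0.65 to -0.52 and an adjusted p of 0.0632 to 0.0966.

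Of 25 peptides and other markers, 7 were at 0 in every library and 7 were tested, 2 of them higher and 1 lower. These are 28.6% and 14.3% of those tested, beside 11.9% and 13.7% of all genes tested. The median log2 fold change was 0.14. PTHLH, parathyroid hormone-related peptide, rose from 2.50 ± 0.362 to 36.4 ± 7.07 CPM, a log2 fold change of 3.88 (SE 0.26, adjusted p 5.565e-09). NPY, neuropeptide Y, went from 0, 0 and 1 counts in Control to 38, 29 and 141 counts in OE libraries. The ratio of its summed counts, scaled for library size, was 168, with a counting interval of 29.9 to 6675. NPY reached the level asked by the filter in 0 Control and 3 OE libraries, so it entered the test only through the group where it was high, and its call is no evidence beyond these counts. PTHLH reached it in 2 Control and 3 OE libraries. BEX1, a brain-expressed adaptor protein, fell from 473.6 ± 57.7 to 314.2 ± 22.2 CPM (-0.59, adjusted p 0.00256). The classical peptides of neuroendocrine tumours NTS, GRP, SST and VIP were among those at 0.

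**Figure D2:**
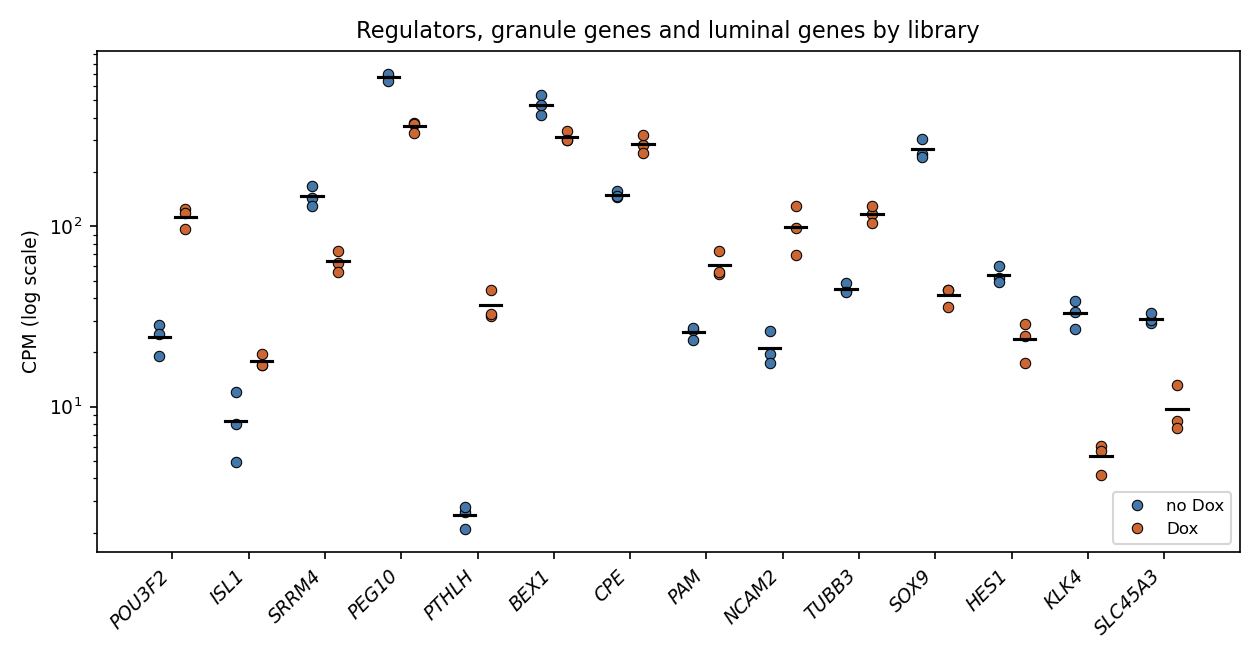
TMM-scaled CPM (log axis) of 14 named genes in the Control (no Dox) and OE (Dox) libraries, with each library as a point and a short bar at each group mean. POU3F2, PAM and CPE lie higher and SRRM4, PEG10, KLK4 and SLC45A3 lie lower in OE than in Control libraries.

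Of the partners of REST, 2 passed the threshold. All 20 corepressor genes of the list were tested, 1 rose and 1 fell (10% beside 25.5% of all genes tested), and the median log2 fold change was -0.07. RCOR1 and KDM1A, the corepressor and the histone demethylase of the core complex, had values of 0.09 (adjusted p 0.714) and -0.004 (adjusted p 0.989). The sign of RCOR1 turned in 1 and that of KDM1A in 6 of 15 alternatives. RCOR2 went from 18.2 ± 6.68 to 12.2 ± 5.87 CPM and did not pass (-0.57, adjusted p 0.196). It did pass with the filter on low counts removed (-0.58, adjusted p 0.0474) and with the replicate number as a block (-0.60, adjusted p 0.0384). HDAC1, a histone deacetylase, fell (-0.40, adjusted p 0.0344) but lost its call without any of Control replicates 1 or 2 or OE replicates 1 or 2 (-0.42 to -0.32, adjusted p 0.0577 to 0.167). The HDAC1 call was also lost with upper-quartile normalization (-0.34, adjusted p 0.0655) and on library totals alone (-0.28, adjusted p 0.131). The count of 2 became 0 without Control replicate 1, Control replicate 2 or OE replicate 1, and 1 without Control replicate 3 or OE replicate 3.

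Known neuronal targets of REST moved in both directions. Of 35 on the list, which includes CHGA, CHGB, SCG2 and SYP, 29 were tested, 7 rose and 5 fell (24.1% and 17.2%, beside 11.9% and 13.7% of all genes tested), and the median log2 fold change was 0.15. CHGB and SYP are themselves among the 7 that rose, so the share is not separate from them. SYN1, also among the 7, reached the filter in 2 Control and 3 OE libraries. TUBB3, the neuronal beta-tubulin, rose from 45.2 ± 2.78 to 117.4 ± 12.3 CPM (1.39, adjusted p 8.368e-07). BDNF, a growth factor of neurons, was at 2.13 ± 0.492 and 8.34 ± 1.31 CPM (2.01). BDNF reached the filter in 0 Control and 3 OE libraries, so its call too is given as a description. SEZ6L2, a neuronal membrane protein, rose from 134.3 ± 17.5 to 225.6 ± 19.5 CPM (0.75, adjusted p 4.266e-04). Beside SYT4, DISP2 (-0.93, adjusted p 0.0126), a transporter-like membrane protein, and NEFH, the heavy neurofilament (88.1 ± 18.5 to 58.7 ± 10.2 CPM, -0.59, adjusted p 0.0148), fell. DISP2 lost its call without OE replicate 1 (-0.78, adjusted p 0.0589). NEFH lost its call without Control replicate 2 (-0.41, adjusted p 0.0945) or OE replicate 3 (-0.45, adjusted p 0.0577). VGF, a granule peptide precursor and the most abundant gene of this list, was at 559.4 and 676.4 CPM and did not pass (0.28, adjusted p 0.375). Its value hung on single libraries: without OE replicate 2 it passed (0.53, adjusted p 0.0197), and without OE replicate 3 its sign turned (-0.08).

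**Figure D3:**
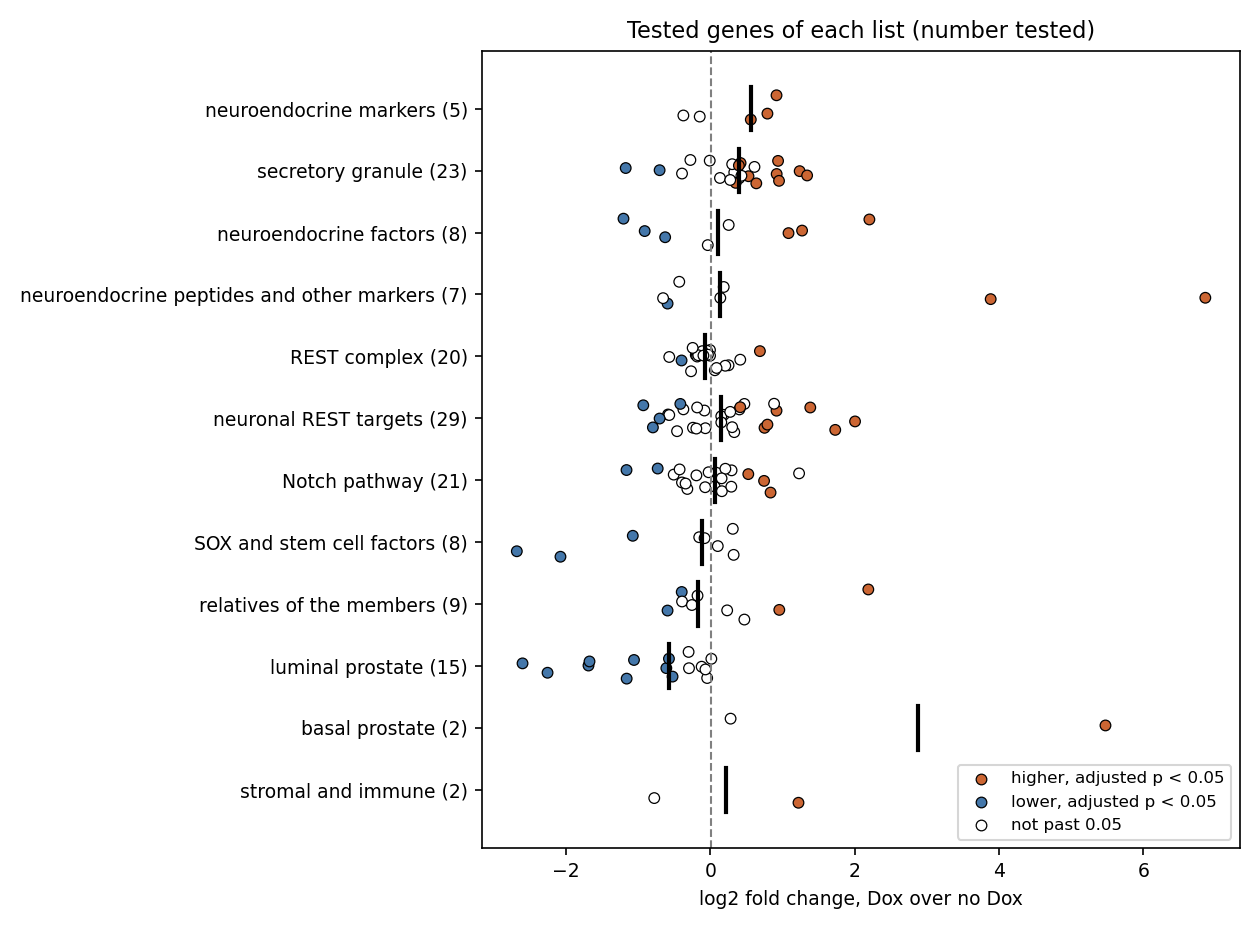
Log2 fold change, OE over Control, of every tested gene on 12 lists around the neuroendocrine differentiation genes. A bar marks the median of each list, a dashed line the median of all genes tested (0.02), and colours the genes past the threshold. The secretory granule list has its median at 0.40 and the luminal prostate list at -0.57, the basal list of 2 tested genes at 2.88, and the other lists between -0.18 and 0.56.

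Genes with an RE1-like sequence near the start were called in both directions. With at most 1 mismatch, 21 of 53 were tested, 5 rose and 4 fell (42.9% called), and the median log2 fold change was 0.16. Among all protein-coding genes of the table, 148 held a sequence with at most 2 mismatches within 5000 bases of the start. Of these, 61 (41.2%) were tested, against 59.5% of all 18401 protein-coding genes, and 16 rose and 8 fell, so that 39.3% passed the threshold against 26.2% of all tested protein-coding genes. By direction, 26.2% were higher and 13.1% lower, beside 11.9% and 13.7% of all genes tested. Of the 16 that rose, 5 fell short of the filter's level in at least 1 Control library, and of the 8 that fell, 1 did so in an OE library, so these shares are descriptions of genes that passed a filter. With at most 3 mismatches, 455 genes held one, 227 were tested, 38 rose (16.7%) and 27 fell (11.9%), 28.6% in all, and the median log2 fold change was 0.10 against 0.01. Of these 38, 10 fell short of the filter's level in at least 1 Control library, and of the 27, 1 did so in an OE library. With at most 1 mismatch these were 2 of 5 and 0 of 4. CHGB is among the genes that rose in every set, and SYP in every set that allows at least 2 mismatches. With at most 4 mismatches, 26.9% of 1455 tested genes passed. The window and these thresholds were chosen after the data were seen.

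The elements of 4 further genes are given to set beside those of CHGB and SYP, since genes with nearly the same letters were higher, were lower or did not pass. Each has 1 mismatch and capitals mark matching letters. They were chosen after their values were seen.
SYN1: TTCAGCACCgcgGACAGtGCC
BDNF: TTCAGCACCttgGACAGaGCC
VGF: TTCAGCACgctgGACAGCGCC
SRRM4: TTCAGCACtttgGACAGCGCC
The sequence of SYN1 (synapsin I, a synaptic vesicle phosphoprotein) lies at chrX:47620070-47620090 on the minus strand, upstream of the gene. That of BDNF lies at chr11:27720676-27720696 on the minus strand, that of VGF at chr7:101165559-101165579 on the plus strand in an untranslated exon, and that of SRRM4 at chr12:118981833-118981853 on the plus strand, also in an untranslated exon. SYN1 was at 2.98 ± 0.827 and 10.01 ± 1.78 CPM, a log2 fold change of 1.73 with an adjusted p of 5.445e-04, and reached the filter in 2 Control and 3 OE libraries. SRRM4 fell, as given above, and CHRNB2, a nicotinic receptor subunit that like CHGA has 0 mismatches, had a log2 fold change of -0.08 with an adjusted p of 0.853.

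**Figure D4:**
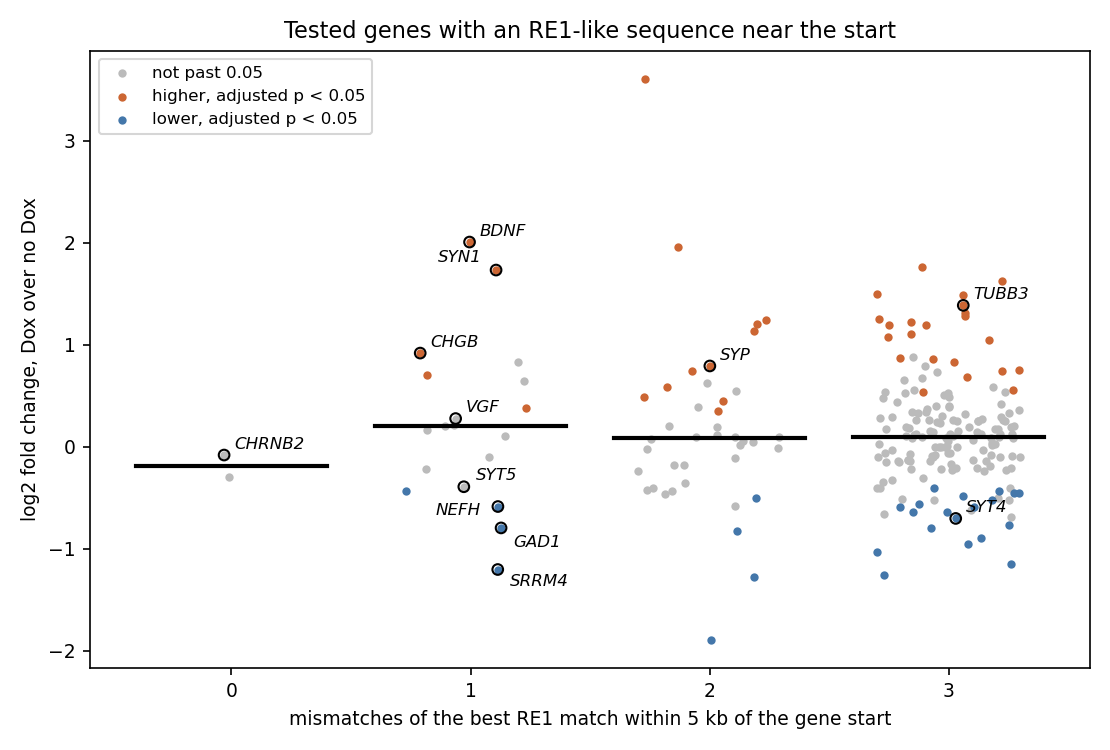
Log2 fold change, OE over Control, of tested protein-coding genes with an RE1-like sequence within 5000 bases of the start, by the number of mismatches of their best match (0 to 3), with a bar at each median. CHGB and SYP lie above 0 among genes that lie on both sides of it, and SRRM4 lies lowest of the genes with 1 mismatch.

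In the promoter windows of RefSeq (GRCh38.p14, 250 bases before to 50 after the start), 5 of the 9 genes were matched by symbol, CHGA, ENO2, REST, SOX2 and SYP. No window of these 5 held RE1 with up to 3 mismatches, against 37 of 35116 windows in all (0.105%). The cAMP response element TGACGTCA, searched on both strands, was held by the CHGA window, 54 bases before the start, and by 1.85% of all windows. The E-box CAGCTG was in none of the 5 and in 17.9% of all windows.

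Genes of the Notch pathway, which holds back neuroendocrine fate in several epithelia, were called at a share near that of all genes. Of 30, 21 were tested, 3 rose and 2 fell, a share of 23.8% beside 25.5% of all genes tested, with a median log2 fold change of 0.06. HES1, the main transcriptional target and a repressor of neural fate, fell from 53.8 ± 5.59 to 23.7 ± 5.70 CPM (-1.16, adjusted p 1.077e-04). MAML3, a coactivator, fell from 42.2 ± 1.37 to 25.6 ± 2.84 CPM (-0.73, adjusted p 0.00227). DLL3, the inhibitory ligand found on neuroendocrine tumours, had a log2 fold change of -0.32 and did not pass. The genes that rose did so narrowly. NCSTN, a subunit of gamma-secretase (0.83, adjusted p 0.0223), lost its call without Control replicate 2 (0.67, adjusted p 0.0793) or OE replicate 3 (0.41, adjusted p 0.178). NUMBL (0.53, adjusted p 0.0384) lost it without any of the 6 libraries, with an adjusted p of 0.0518 to 0.15. The receptor NOTCH3 (0.74, adjusted p 0.0398) lost it without any of Control replicates 1 or 2 or OE replicates 1 or 3, at 0.48 to 0.82 and an adjusted p of 0.0589 to 0.217. The count of 5 became 3 without Control replicate 1 or OE replicate 1 and 2 without Control replicate 2 or OE replicate 3.

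Among the SOX2 relatives and stem cell factors that passed the filter, the only calls were in the downward direction. Of 25 on the list, 7 were at 0 in every library, 8 were tested, none rose and 3 fell. The 37.5% lower stands beside 13.7% of all genes tested, of which 11.9% were higher. The median log2 fold change of the list was -0.12. SOX9, a SOX factor of prostate epithelium, fell from 267.7 ± 33.6 to 41.5 ± 5.06 CPM (-2.68, SE 0.14, adjusted p 4.717e-10). ALDH1A1, an aldehyde dehydrogenase used as a stem cell marker, fell from 10.4 ± 1.90 to 2.37 ± 1.54 CPM (-2.08, adjusted p 4.604e-04). KLF4, a pluripotency and epithelial factor, fell from 44.9 ± 7.06 to 21.0 ± 5.94 CPM (-1.07, adjusted p 6.166e-04). These 3 calls held in each alternative in which the gene was tested. Genes under the filter did not all go down. SOX11 had 7 counts over the Control and 34 over the OE libraries, a scaled ratio of 3.93 (counting interval 1.71 to 10.5). SOX18 had 4 and 16 (3.23, 1.04 to 13.3). SALL4 (2 and 0) and NANOG (2 and 1) had fewer counts with Dox, too few to read a direction.

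Relatives of the 9 genes passed in both directions. Of 15, 9 were tested, 2 rose and 2 fell (22.2% in each direction, beside 11.9% and 13.7% of all genes tested). The median log2 fold change was -0.18. NCAM2, the paralog of NCAM1, was well above it and rose from 21.0 ± 4.59 to 98.7 ± 30.0 CPM (2.19, adjusted p 7.743e-07). ENO1, the enolase of all cells, fell from 457.5 ± 40.8 to 303.2 ± 15.3 CPM (-0.59, adjusted p 0.00174), while ENO2 did not pass. The muscle enolase ENO3 had 8, 3 and 6 counts in Control and 3, 9 and 27 in OE libraries and was not tested. Of the relatives of SYP, SYNGR1 (0.96, adjusted p 0.0146) and SYNGR2 (-0.40, adjusted p 0.0394) went opposite ways, and SYPL1 did not pass (-0.25, adjusted p 0.348), but did without OE replicate 3 (-0.54, adjusted p 0.0284). SYNGR1 lost its call without any of Control replicates 1 or 3 or OE replicate 1 (0.80 to 0.84, adjusted p 0.0696 to 0.0803), and SYNGR2 without any of Control replicates 1 or 2 or OE replicates 1 or 2 (-0.42 to -0.34, adjusted p 0.0835 to 0.159). The count of 4 became 2 without Control replicate 1 or OE replicate 1.

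Part of the luminal programme, whose loss accompanies neuroendocrine change in tumours, was lower with Dox. Of 15 luminal prostate genes, 15 were tested, none rose and 9 fell (60% lower, beside 13.7% of all genes tested), and the median log2 fold change was -0.57, with 1 of 15 over 0. The 9 include ACPP, which reached the filter in 3 Control and 0 OE libraries and so entered the test only through the Control libraries. The ACPP call was lost in 12 of 14 alternatives. KLK2, also among the 9, reached the filter in 3 Control and 2 OE libraries. Their summed level was 2117 to 2227 CPM in Control and 1374 to 1569 CPM in OE libraries, without overlap. KLK4, a kallikrein, fell from 33.1 ± 5.81 to 5.30 ± 1.0 CPM (-2.60, adjusted p 2.010e-07), and SLC45A3 (prostein) from 30.7 ± 2.07 to 9.74 ± 3.07 CPM (-1.67, adjusted p 2.227e-05). KLK3 (prostate-specific antigen) did not pass, at -0.30 with an adjusted p of 0.611. Without OE replicate 1 it passed at -1.10 with an adjusted p of 0.0245, and without Control replicate 3 or OE replicate 3 its sign turned.

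Most markers of other cell types were at or near 0. Of 8 basal prostate genes 2 were tested, and NGFR, a neurotrophin receptor of basal cells and of neural crest, went from 1, 3 and 1 counts in Control to 86, 58 and 158 in OE libraries. The ratio of its summed counts, scaled for library size, was 48.8 (20.7 to 152). NGFR too entered the test only through the OE libraries (0 Control libraries reached the filter), so no p is given, and the median of this list, over 2 genes, describes little. The basal list's summed level was 325 to 350 CPM in Control and 353 to 537 CPM in OE libraries, nearly all of it DST, a cytoskeletal linker that did not pass (0.28) except without OE replicate 3 (0.41, adjusted p 0.0441), and TP63 had at most 1 count. Stromal and immune markers summed to 6.82 to 11.7 CPM in Control and 8.35 to 12.1 CPM in OE libraries, with 4 of 11 at 0 throughout, PECAM1 and CD3E among them. COL1A1 (2.43 ± 1.09 to 5.49 ± 2.01 CPM, 1.22, adjusted p 0.0313) was the only 1 of these 11 to pass. It reached the filter in 1 Control and 3 OE libraries, and it lost its call without any of Control replicates 2 or 3 or OE replicates 1 or 3 (0.87 to 1.27, adjusted p 0.0590 to 0.166).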

How the data were processed

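RNA from 3 Control and 3 OE libraries was sequenced from the 3′ end. The paper's methods name the REV and the sample labels the FWD kit. Per the labels, reads were called with CASAVA 1.8.2 and mapped to hg38 with STAR, and HTSeq and edgeR are named. The authors deposited raw counts per gene symbol, and for each library a normalized signal whose method is not given in the sources used here. The rows that name no gene (32.5% to 39.5% on no feature, 3.05% to 3.37% ambiguous) were kept out. In R 4.3.3, edgeR 4.0.16 normalized the counts by TMM, filtered them with filterByExpr and tested the group as the only term (quasi-likelihood test), and p-values were adjusted after Benjamini and Hochberg over all genes tested, with a threshold of 0.05. The 9 genes and the 12 lists (241 genes, 140 tested) were chosen with earlier results of these data known. In each list the 3 genes of lowest adjusted p among those that rose and among those that fell were named, with relatives and partners fixed by name; SYN1, CHRNB2, VGF and other genes outside this rule were named after their values were seen. Some genes that the rule picks are not reported here but stay in the counts of their lists. The limit of detection was 3 counts (0.394 to 0.930 CPM per library), which covers counting error only. The 15 alternatives used other normalizations, filters and tests (limma 3.58.1, DESeq2 1.42.0), a replicate block, the deposited signal as log2(value + 1) without 27 rows whose names differ between files, and fits without each library. The fit and the motif search were checked on simulated data. Libraries of parent cells with Dox were not analysed here.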

Additional observations from a re-analysis of the deposited data

How the results depend on the processing

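CHGB and SYP kept their direction and stayed past the threshold in 15 of 15 alternatives, and ENO2 and SCG2 kept theirs and stayed short of it. REST kept its direction in 15 of 15 and stayed past the threshold in 14 of 15. Leaving out a library gave 0.75 to 1.06 for CHGB, 0.68 to 0.84 for SYP, 0.38 to 0.70 for REST, -0.29 to -0.01 for ENO2 and -0.55 to -0.28 for SCG2, and REST lost its call without Control replicate 1 (0.51, adjusted p 0.0640 by edgeR); the cause was not tested.

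The 3125 genes called became 923 when a 2-fold change was also required and 2181 to 3112 without a library, and the 1451 called higher became 2179 on library totals alone and 953 to 1459 without a library. The median log2 fold change of all tested genes moved from 0.02 to 0.14 on library totals alone, and higher calls as a share of all calls from 46.4% to 65.7%, or 55.6% by upper-quartile normalization. List counts without a library ran from 5 to 12 for the secretory granule, 0 to 2 for the REST complex, 2 to 5 for the Notch pathway, 2 to 5 for relatives, 1 to 2 for basal and 0 to 1 for stromal and immune genes. With at least 10 counts in every library the peptide list had 1 call and the basal and the stromal and immune lists had 0, since fewer genes were tested. By DESeq2 the REST complex had 1, the Notch pathway 3 and the stromal and immune list 0. Upper-quartile normalization gave 1 for the REST complex, and the deposited normalized values gave 3 for the Notch pathway and 0 for the stromal and immune list. For RE1 near the start, 65 tested genes were called with up to 3 mismatches, 24 with up to 2 and 391 with up to 4, the sets being nested.

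The replicate numbers are shared between groups, and the labels do not say that they mark pairs. The deviations of same-numbered libraries from their group means had an r of -0.010, 0.23 and 0.086 over genes. Differently numbered libraries were not compared in this way, so these values cannot settle whether the libraries are paired. The main fit did not take the numbers as pairs. With the replicate block the values were 0.90 for CHGB, 0.80 for SYP, 0.54 for REST, -0.14 for ENO2 and -0.37 for SCG2, and 3537 genes were called; no call among these 5 genes changed.

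Depth limits CHGA, INSM1, NCAM1 and SOX2: a level under about 0.105 CPM over all 6 libraries could not be seen.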
